A study of Mus musculus with 22 samples.

Results

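DNA replication genes were followed in mouse colon through 7 days of dextran sodium sulfate (DSS) colitis, in VC+ mice, which lack PPARγ in intestinal epithelial cells, and in VC- control mice. The set was a fixed list of 38 genes for the proteins that copy DNA. It held 9 helicase genes, 7 genes for licensing and firing of origins, 9 polymerase and primase genes, 6 genes for the sliding clamp and its loader, 3 genes for single-strand binding and 4 genes for processing of Okazaki fragments. All 38 were found among the 18194 genes on the arrays. Each gene was read from 1 probe set, the one with the largest interquartile range over the 22 arrays.

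Groups were VC+ on day 0 (3 arrays), day 2 (5 arrays) and day 7 (4 arrays), and VC- on day 0 (3 arrays), day 2 (3 arrays) and day 7 (4 arrays). Animals of day 2 and day 7 drank 2.5% DSS, a polymer that injures the colonic lining, while those of day 0 had none. Every animal carried floxed PPARγ alleles, in a mixed FVB/C57BL/6 background by the study's account of its main cohort, and the VC+ animals carried a Cre recombinase driven by the villin promoter, which is active in gut epithelium and leaves the gene intact in other cells. The age of the animals is not given in the sources used here, and nothing in the labels says whether arrays of a group came from different mice. The p-values therefore cover the spread among arrays, which may be technical.

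The tissue was labelled colonic mucosa and was homogenised before RNA extraction. Smooth muscle markers were strong on all 22 arrays, with a summed log2 signal (the log2 of their added linear signals) between 13.64 and 15.96. In such bulk tissue, fewer cells of a type and less RNA per cell cannot be told apart. Pparg itself had a log2 signal between 6.26 and 10.35 on the VC+ arrays and between 7.39 and 10.96 on the VC- arrays. Where its probe set lies relative to the deleted part was not examined, so these values do not check the genotype. On 3 arrays (VC+ day 7 replicate 4, VC- day 0 replicate 3 and VC- day 7 replicate 2) the pancreatic gene Prss2 exceeded a log2 signal of 8, and on 6 arrays, none of them of day 7, the X-inactivation RNA Xist reached it.

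Copying of the genome takes place in S phase. In late mitosis and G1 the origin recognition complex, Cdc6 and Cdt1 place the ring-shaped Mcm2-7 helicase on origins, and in S phase the kinase Cdc7 and the Cdc45 and GINS proteins turn that ring into a moving helicase. Primase and the polymerases alpha, delta and epsilon then make the new strands, held on DNA by the Pcna clamp, while the short Okazaki fragments of the lagging strand are trimmed and joined. In the colon the cells that divide lie in the lower part of the crypts, and the regrowth of crypts after injury depends on them. Many of these genes are textbook targets of the E2F transcription factors, whose binding letters are found near their start sites.

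Promoters of members are shown here because the genes moved together over the arrays. RefSeq windows from 250 bases before to 50 bases after the start site (build GRCm38.p6) were at hand for 31 of the 38 members and not for Mcm4, Gins1, Gins2, Gmnn, Prim2, Pole and Rfc2. An E2F motif (TTTCCCGC, TTTGGCGC, TTTCGCGC or TTTGCCGC, either strand) was in the windows of 13 of 31 members (41.9%), against 2.60% of all 27025 genes with a window. The NF-Y motif CCAAT was in 19 of 31 (61.3%), against 41.1% of all genes, and the CHR motif TTTGAA, known from mitotic genes, was in 5 of 31 (16.1%), against 20.2%. In a list of mitosis genes the order of E2F and CHR was the other way, with E2F letters in 1 of 18 windows and CHR letters in 12 of 18. CCAAT was the most frequent of the motifs there too, in 15 of 18. E2F letters were in 0 of 3 windows of single-strand binding members and in 0 of 11 of a list for the supply of deoxynucleotides. The stretches just before the start site of 5 members follow, each 5′ to 3′ on the strand of the gene, with E2F and CCAAT letters of either strand in capitals.
Mcm6, chr1:128359706-128359825, minus strand: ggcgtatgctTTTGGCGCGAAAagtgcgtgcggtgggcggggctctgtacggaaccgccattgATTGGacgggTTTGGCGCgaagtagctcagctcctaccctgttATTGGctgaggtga
Mcm5, chr8:75109339-75109508, plus strand: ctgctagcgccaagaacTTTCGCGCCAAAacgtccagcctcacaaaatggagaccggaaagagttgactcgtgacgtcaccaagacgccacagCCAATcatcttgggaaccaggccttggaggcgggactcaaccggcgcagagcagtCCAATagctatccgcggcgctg
Orc1, chr4:108579324-108579453, plus strand: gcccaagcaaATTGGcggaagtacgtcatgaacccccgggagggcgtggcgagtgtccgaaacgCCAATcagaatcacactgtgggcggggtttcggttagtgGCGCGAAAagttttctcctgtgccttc
Cdc6, chr11:98908001-98908150, plus strand: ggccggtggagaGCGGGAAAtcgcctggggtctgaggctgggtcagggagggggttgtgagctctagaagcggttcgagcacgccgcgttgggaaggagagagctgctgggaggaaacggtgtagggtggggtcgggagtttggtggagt
Pola1, chrX:93632156-93632305, minus strand: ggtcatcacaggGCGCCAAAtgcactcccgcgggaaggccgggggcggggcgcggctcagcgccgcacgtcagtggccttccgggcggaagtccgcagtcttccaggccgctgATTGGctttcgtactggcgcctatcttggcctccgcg
In Mcm6 an E2F motif on the gene's strand, whose first base lies at position -110 from the start site, overlaps another on the opposite strand that begins at position -106. The same overlap of opposite motifs occurs in Mcm5 at positions -153 and -149. Matches are a description of letters only.

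Members as a set were highest in the VC+ day 7 and VC- day 0 groups (means of 0.60 and 0.59) and lowest in the VC+ day 2 and VC- day 7 groups (means of -0.68 and -0.47). These values are log2 signals relative to each gene's mean over the arrays. By array, the mean of the 38 members on VC+ arrays was 0.23, 0.30 and 0.22 on day 0, then -0.89, -0.93, -0.41, -0.53 and -0.66 on day 2, and 1.32, 0.76, -0.40 and 0.72 on day 7 (log2). On VC- arrays it was 0.27, 0.73 and 0.77 on day 0, then -0.08, -0.09 and 0.53 on day 2, and 0.31, -0.84, -0.88 and -0.46 on day 7. In VC+ mice the set was therefore low on day 2 and high on day 7 except on replicate 3, while in VC- mice it was low on day 7 except on replicate 1. In each of the 6 classes VC+ day 7 replicate 3 had the lowest mean of its group and VC- day 7 replicate 1 the highest.

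**Figure D1:**
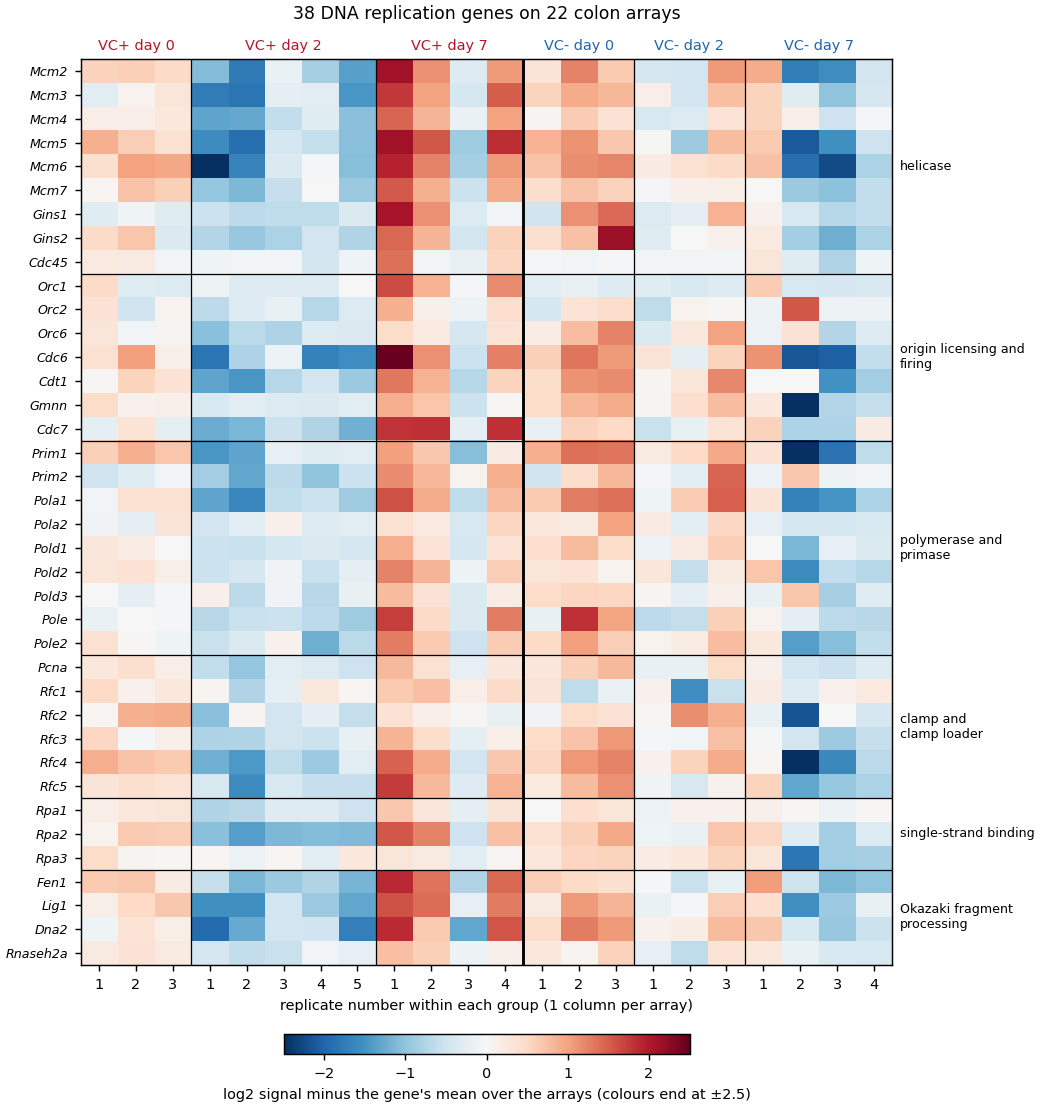
Log2 signal of the 38 members (rows, by class) on the 22 arrays (columns, by group and replicate number), each minus the gene's mean over the arrays. Rows change together from array to array: VC+ day 7 replicate 3 is mostly blue where the other VC+ day 7 arrays are mostly red, and VC- day 7 replicate 1 is mostly pale red where the other VC- day 7 arrays are mostly blue.

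**Figure D2:**
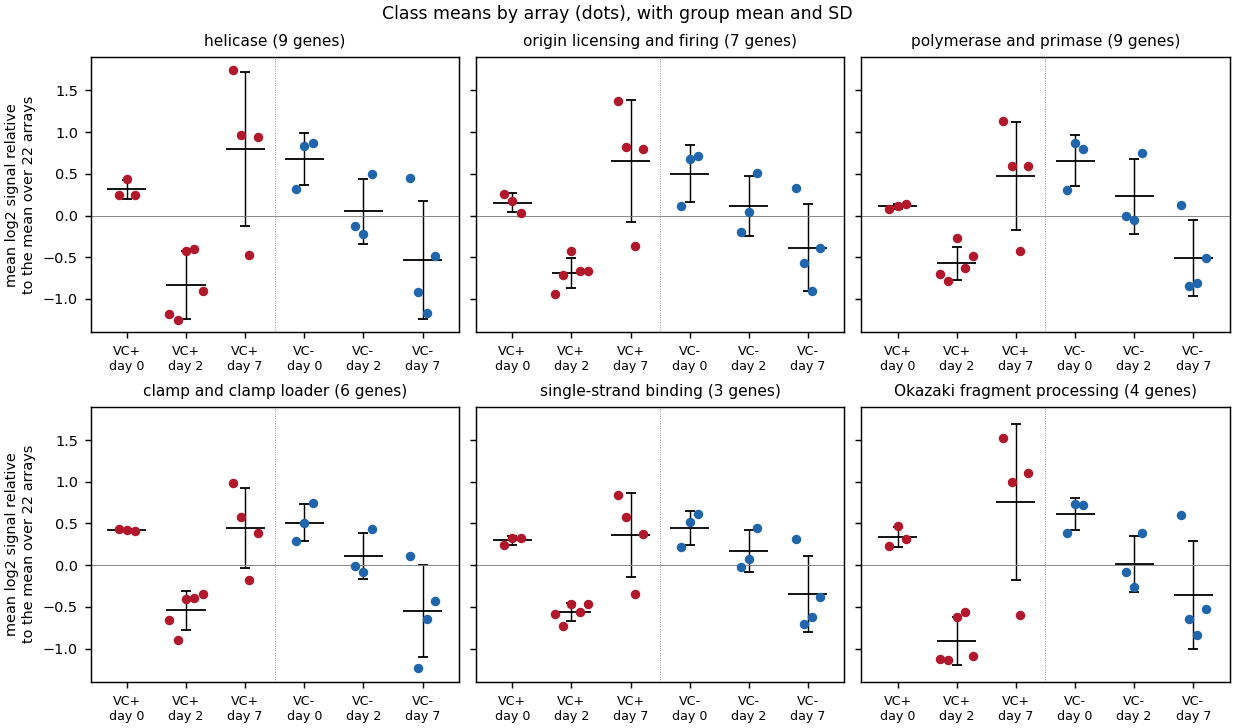
Mean of each class on each array (dots, log2, relative to the mean over the 22 arrays) with the group mean (line) and SD (bar), VC+ in red and VC- in blue. All 6 classes have the same order of groups within VC+, with day 2 lowest and day 7 highest, and the same order within VC-, with day 0 highest and day 7 lowest.

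Between day 2 and day 7 of DSS in VC+ mice, many replication genes rose. Of the 37 members tested, 23 rose and 0 fell (limma, adjusted p under 0.05 over all 9097 genes tested), while 4.76% of all genes tested rose. All 37 fold changes were positive, with a median log2 fold change of 1.34 against 0.01 for all genes tested. All 6 smooth muscle markers fell in the same comparison (median -1.71), and with a term for them in the fit, added after seeing the data, no member and none of the 9097 genes was called and the members' median was 0.42. Every VC+ day 7 array lay above every VC+ day 2 array for 12 of the 37 members, which was so for 7.87% of all genes tested. Cdc45 varied too little over the arrays to be tested: its log2 signal was 5.30, 3.84, 3.72 and 4.46 on the VC+ day 7 arrays, against 3.81, 3.84, 3.85, 3.45 and 3.81 on the VC+ day 2 arrays.

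Between day 0 and day 7 in VC- mice, some replication genes fell. Of the 37 members 13 fell and 0 rose, while 5.06% of all genes tested fell, and the median log2 fold change was -1.10 against -0.09 for all genes tested. None of the 6 muscle markers was called here (median -0.49). With the muscle term 21 members fell, while 10.9% of all genes tested were called in either direction. All VC- day 7 arrays lay below all VC- day 0 arrays for 13 members, which was so for 12.3% of all genes tested. The study singled out the replication pathway from this same contrast, so the count is not independent evidence of its direction. There were 7 members, Cdt1, Gins2, Mcm7, Pcna, Pola1, Rfc3 and Rfc4, that rose in VC+ from day 2 to day 7 and fell in VC- from day 0 to day 7. In VC- mice 2 members, Rpa3 and Rfc4, also fell between day 2 and day 7, while 2.15% of all genes tested fell, and the median was -0.53.

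**Figure D3:**
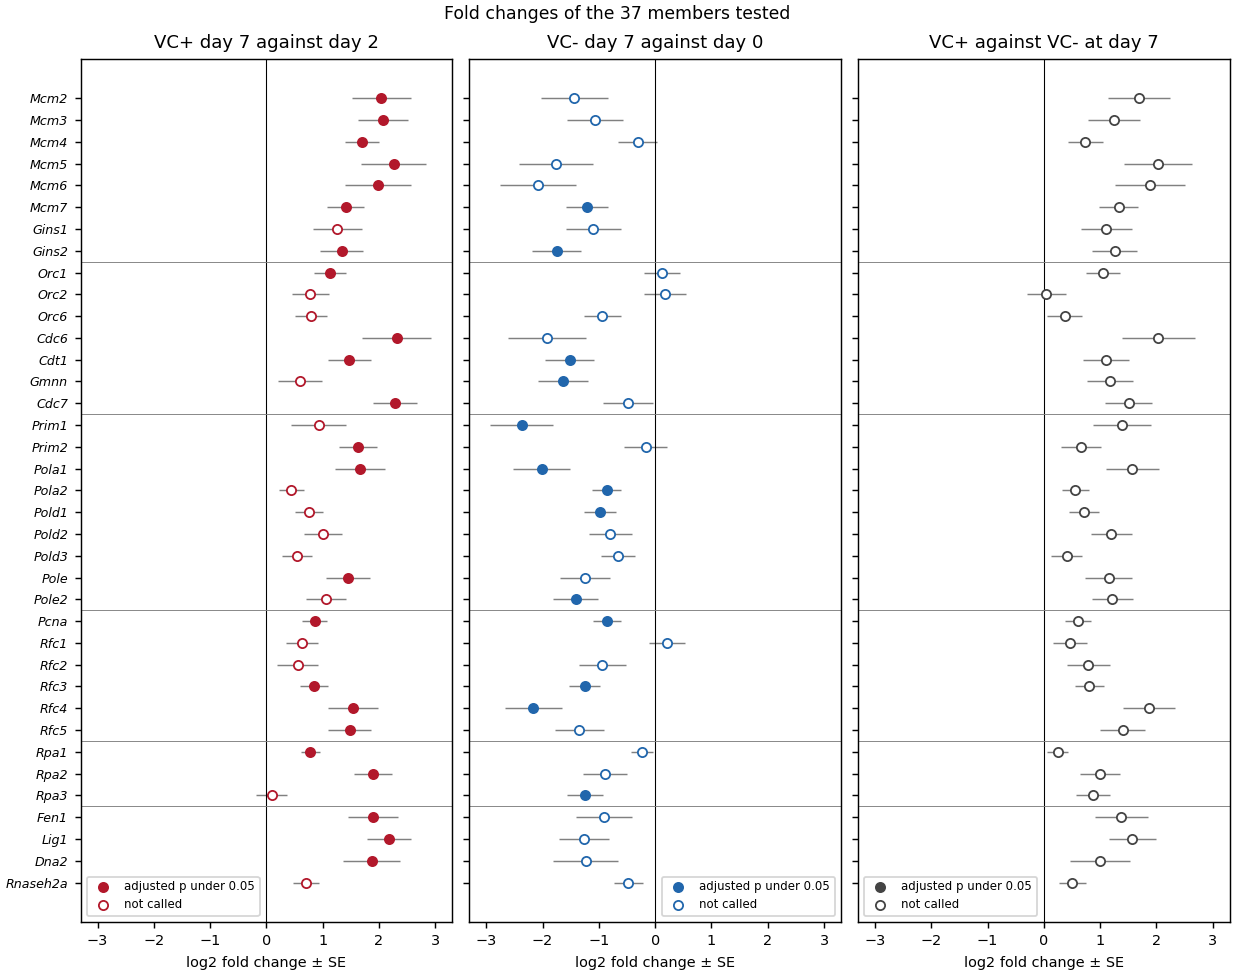
Log2 fold change with its standard error for the 37 members tested (rows, by class, in the order of the plot by array) in 3 comparisons, filled where the adjusted p is under 0.05. On the left 23 members lie to the right of 0 and are filled, in the middle 13 lie to the left and are filled, and on the right all 37 lie to the right of 0 and none is filled.

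Among helicase genes, 7 of the 8 tested rose in VC+ mice between day 2 and day 7. Mcm4, a subunit of the helicase ring, had log2 signals of 9.90, 9.30, 8.28 and 9.45 on the VC+ day 7 arrays, against 7.13, 7.17, 7.83, 8.14 and 7.40 on the VC+ day 2 arrays. The groups do not overlap, and the log2 fold change was 1.70 ± 0.30 (SE, adjusted p = 0.00347). Its VC- day 7 arrays, at 9.0, 8.62, 7.93 and 8.41, overlapped the VC- day 0 arrays at 8.52, 9.08 and 8.81 (-0.31 ± 0.34, adjusted p = 0.531). Mcm3, another ring subunit, had 8.69, 7.92, 6.49 and 8.43 on the VC+ day 7 arrays, against 5.18, 5.09, 6.68, 6.63 and 5.46 on the VC+ day 2 arrays. Replicate 3 of day 7 lay within the day 2 range, and the change was 2.07 ± 0.44 (adjusted p = 0.0102).

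Mcm7 and Gins2 were called on day 7 in both genotypes, in VC+ against day 2 and in VC- against day 0. Mcm7 had 10.21, 9.56, 8.14 and 9.60 on the VC+ day 7 arrays, against 7.71, 7.56, 8.10, 8.69 and 7.76 on the VC+ day 2 arrays (1.41 ± 0.33, adjusted p = 0.0175). In VC- mice its day 7 arrays, at 8.68, 7.76, 7.66 and 8.07, all lay below the day 0 arrays at 9.11, 9.39 and 9.26 (-1.21 ± 0.37, adjusted p = 0.0462). Gins2 is a subunit of GINS, which holds the active helicase together. It had 5.58, 4.98, 3.67 and 4.72 on the VC+ day 7 arrays, against 3.41, 3.19, 3.35, 3.65 and 3.39 on the VC+ day 2 arrays (1.34 ± 0.38, adjusted p = 0.0386). Its VC- day 7 arrays were at 4.39, 3.28, 2.92 and 3.35, against 4.54, 4.86 and 6.28 on the VC- day 0 arrays (-1.74 ± 0.43, adjusted p = 0.0234). The groups were apart in both comparisons, in VC+ only narrowly, with day 7 replicate 3 at 3.67 and the highest day 2 array at 3.65. The VC+ rise of Gins2 stayed called in 1 of 9 fits that left out 1 array.

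The remaining ring subunits rose in VC+ mice. Mcm2, Mcm5 and Mcm6 had log2 fold changes of 2.04, 2.26 and 1.99 between day 7 and day 2 (adjusted p = 0.0248, 0.0246 and 0.0462), and in all 3 genes replicate 3 of VC+ day 7 lay within the day 2 range. In VC- mice their changes from day 0 to day 7 were -1.44, -1.76 and -2.08, and none passed the threshold (adjusted p = 0.108, 0.0811 and 0.0517). Gins1 had 1.26 in VC+ (adjusted p = 0.0801) and -1.10 in VC- (adjusted p = 0.132). Mcm6 and Mcm5 had the widest interquartile ranges of the class, at 1.82 and 1.76.

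Of the 7 origin genes, 4 rose in VC+ mice between day 2 and day 7 and 2 fell in VC- mice between day 0 and day 7. None was called in VC+ mice between day 0 and day 7. Cdc7, the kinase that fires licensed origins, had 6.88, 6.91, 4.85 and 6.91 on the VC+ day 7 arrays, against 3.83, 3.94, 4.54, 4.32 and 3.87 on the VC+ day 2 arrays. With 2.29 ± 0.39 it had the smallest adjusted p of all members (0.00303), and the groups do not overlap even though replicate 3 was far below the other day 7 arrays. In VC- mice Cdc7 was at 5.66, 4.30, 4.30 and 5.28 on day 7, against 4.88, 5.65 and 5.58 on day 0 (-0.48 ± 0.45, adjusted p = 0.456).

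Cdc6 and Cdt1 load the helicase ring on DNA. Cdc6 had 8.09, 6.63, 4.96 and 6.74 on the VC+ day 7 arrays, against 3.66, 4.72, 5.34, 3.80 and 3.93 on the VC+ day 2 arrays, the largest rise of the 37 members at 2.31 ± 0.61 (adjusted p = 0.0285). In VC- mice it was at 6.61, 3.35, 3.44 and 4.88 on day 7, against 6.09, 6.82 and 6.56 on day 0. That is a log2 fold change of -1.92 ± 0.69 (adjusted p = 0.0746), and replicate 1 of day 7 lay within the day 0 range. Cdt1 had 10.34, 9.89, 8.31 and 9.58 on the VC+ day 7 arrays, against 7.71, 7.57, 8.32, 8.57 and 8.10 on the VC+ day 2 arrays (1.47 ± 0.39, adjusted p = 0.0279). On the VC- day 7 arrays it was at 9.01, 9.02, 7.51 and 8.15, all below the VC- day 0 arrays at 9.47, 10.15 and 10.21 (-1.52 ± 0.44, adjusted p = 0.0379).

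Orc1, the ATP-binding subunit of the origin recognition complex, was near the floor of the array in most groups. It had 5.28, 4.52, 3.62 and 4.83 on the VC+ day 7 arrays, against 3.53, 3.34, 3.33, 3.33 and 3.64 on the VC+ day 2 arrays (1.13 ± 0.28, adjusted p = 0.0219). On VC- day 7 only replicate 1 stood out, at 4.29 against 3.25, 3.24 and 3.27 on the other arrays of the group. Gmnn (geminin) holds Cdt1 inactive after origins have fired. It had 9.30, 6.48, 8.29 and 8.43 on the VC- day 7 arrays, all below the VC- day 0 arrays at 9.49, 9.85 and 9.95 (-1.64 ± 0.45, adjusted p = 0.0325), and its change in VC+ between day 7 and day 2 was 0.60 (adjusted p = 0.396). The other origin complex subunits, Orc2 and Orc6, had 0.78 and 0.80 in VC+ (adjusted p = 0.164 and 0.0976) and 0.17 and -0.94 in VC- (adjusted p = 0.77 and 0.0661).

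Of the 9 polymerase and primase genes, 3 rose in VC+ between day 2 and day 7 and 5 fell in VC- between day 0 and day 7. Prim1, the catalytic subunit of primase, had 8.14, 5.22, 5.93 and 7.14 on the VC- day 7 arrays, against 8.66, 9.15 and 9.11 on the VC- day 0 arrays. The groups do not overlap, and at -2.37 ± 0.56 this was the largest fall of any member (adjusted p = 0.0175). In VC+ mice it was at 8.80, 8.46, 6.72 and 7.99 on day 7, against 6.32, 6.47, 7.57, 7.47 and 7.49 on day 2 (0.93 ± 0.49, adjusted p = 0.269).

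Prim2, the large primase subunit, rose in VC+ mice. On the VC+ day 7 arrays it was at 6.75, 6.40, 5.65 and 6.46, all above the VC+ day 2 arrays at 4.70, 4.26, 4.91, 4.56 and 5.03 (1.62 ± 0.34, adjusted p = 0.00919). In VC- mice it had 5.41, 6.23, 5.44 and 5.50 on day 7, against 5.07, 6.00 and 6.39 on day 0 (-0.17 ± 0.38, adjusted p = 0.775). Whether the 2 primase subunits differ from each other in their changes was not tested.

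Pola1, the catalytic subunit of polymerase alpha, was called on day 7 in both genotypes, in VC+ against day 2 and in VC- against day 0. It had 6.83, 6.17, 4.60 and 6.01 on the VC+ day 7 arrays, against 3.93, 3.62, 4.62, 4.70 and 4.35 on the VC+ day 2 arrays (1.66 ± 0.44, adjusted p = 0.0298), with replicate 3 of day 7 inside the day 2 range. Its VC- day 7 arrays at 5.57, 3.55, 3.75 and 4.45 lay below the VC- day 0 arrays at 5.90, 6.53 and 6.61 (-2.02 ± 0.50, adjusted p = 0.0236). Pole, the catalytic subunit of the leading-strand polymerase epsilon, had 5.34, 4.10, 3.26 and 4.89 on the VC+ day 7 arrays, against 2.92, 3.06, 3.08, 2.96 and 2.74 on the VC+ day 2 arrays (1.45 ± 0.40, adjusted p = 0.0329), so its day 2 values were at the floor.

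Pole2, Pold1 and Pola2 fell by 1.41, 0.98 and 0.86 on the log2 scale in VC- between day 0 and day 7 (adjusted p = 0.0366, 0.0379 and 0.0396). In VC+ their changes from day 2 to day 7 were 1.05, 0.76 and 0.44 (adjusted p = 0.0732, 0.0693 and 0.249). Pold1 is the catalytic subunit of polymerase delta, and Pole2 and Pola2 are accessory subunits. The accessory subunits Pold2 and Pold3 of polymerase delta passed the threshold in neither comparison, with 1.01 and 0.55 in VC+ (adjusted p = 0.0732 and 0.227) and -0.79 and -0.66 in VC- (adjusted p = 0.16 and 0.139).

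Pcna, the sliding clamp, had the strongest signals of the set. It was at 12.83, 12.39, 11.82 and 12.31 on the VC+ day 7 arrays, all above the VC+ day 2 arrays at 11.40, 11.06, 11.75, 11.68 and 11.50 (0.86 ± 0.22, adjusted p = 0.0239). In VC- mice it had 12.14, 11.58, 11.49 and 11.69 on day 7, all below the day 0 arrays at 12.30, 12.61 and 12.83 (-0.85 ± 0.25, adjusted p = 0.0379). A change of this size on the log2 scale is under a doubling, smaller than that of most helicase genes.

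The clamp loader opens the Pcna ring and sets it on DNA. Its subunit Rfc4 had 8.71, 8.17, 6.76 and 7.91 on the VC+ day 7 arrays, against 6.04, 5.80, 6.60, 6.33 and 6.96 on the VC+ day 2 arrays (1.54 ± 0.44, adjusted p = 0.0387). In VC- mice it was at 7.29, 4.58, 5.63 and 6.56 on day 7, against 7.75, 8.32 and 8.47 on day 0 (-2.16 ± 0.50, adjusted p = 0.0169) and 7.34, 7.79 and 8.16 on day 2 (-1.75 ± 0.50, adjusted p = 0.0482). The day 7 arrays lay below those of both earlier days. Rfc3 had the smallest adjusted p among the VC- falls, with 6.55, 6.13, 5.69 and 6.02 on day 7 against 7.07, 7.31 and 7.68 on day 0 (-1.25 ± 0.28, adjusted p = 0.0133). Its VC+ change from day 2 to day 7 was 0.84 ± 0.24 (adjusted p = 0.0403).

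Rfc5 had 8.35, 7.42, 6.27 and 7.48 on the VC+ day 7 arrays, all above the VC+ day 2 arrays at 6.21, 5.03, 6.20, 6.03 and 6.02 (1.48 ± 0.38, adjusted p = 0.0265). Its VC- change from day 0 to day 7 was -1.34 (adjusted p = 0.053). Rfc2 had 0.55 and -0.94 in these comparisons (adjusted p = 0.401 and 0.13), and Rfc1, the large subunit, had 0.63 and 0.21 (adjusted p = 0.193 and 0.668). Rfc1 also followed the other members least over the 22 arrays, with a Pearson correlation of 0.25 with their mean.

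Replication protein A coats single-stranded DNA. Its middle subunit Rpa2 had 7.74, 7.43, 5.67 and 6.92 on the VC+ day 7 arrays, against 5.14, 4.82, 5.07, 5.10 and 5.08 on the VC+ day 2 arrays, a rise of 1.90 ± 0.34 with no overlap (adjusted p = 0.00385). The 5 day 2 arrays lay close together and the day 7 arrays did not. Rpa1, the large subunit, had 9.23, 8.85, 8.33 and 8.88 on day 7 against 7.81, 7.88, 8.24, 8.24 and 8.04 on day 2 in VC+ (0.78 ± 0.17, adjusted p = 0.0118), again apart.

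Rpa3, the small subunit, was called in VC- mice and not in VC+ mice. In VC+ mice it was at 10.40, 10.32, 9.83 and 10.14 on day 7, against 10.14, 9.95, 10.14, 9.83 and 10.35 on day 2 (0.09 ± 0.28, adjusted p = 0.892), while in VC- mice it was at 10.40, 8.28, 9.23 and 9.27 on day 7, against 10.35, 10.63 and 10.66 on day 0 (-1.25 ± 0.32, adjusted p = 0.0256). Replicate 1 of VC- day 7 was within the day 0 range and the other 3 arrays were below it. The VC- changes of Rpa1 and Rpa2 were -0.24 and -0.89 (adjusted p = 0.398 and 0.122).

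For Okazaki fragments, 3 of 4 genes rose in VC+ between day 2 and day 7. Between day 0 and day 7, 0 of 4 were called in VC- and 0 of 4 in VC+. Lig1, the ligase that joins the fragments, had 7.94, 7.75, 6.15 and 7.65 on the VC+ day 7 arrays, all above the VC+ day 2 arrays at 4.81, 4.81, 5.87, 5.43 and 5.04 (2.18 ± 0.39, adjusted p = 0.00392). Fen1, the flap nuclease, had 8.20, 7.66, 5.56 and 7.74 on day 7 against 5.71, 5.17, 5.38, 5.57 and 5.15 on day 2 (1.89 ± 0.44, adjusted p = 0.0178), with replicate 3 again within the day 2 range. Dna2, a nuclease and helicase that trims long flaps, had 7.70, 6.48, 4.53 and 7.41 on day 7 against 3.91, 4.58, 5.35, 5.34 and 4.13 on day 2 (1.87 ± 0.50, adjusted p = 0.0306).

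In VC- mice the same 3 genes had -1.26, -0.91 and -1.24 from day 0 to day 7 (adjusted p = 0.0689, 0.214 and 0.143 for Lig1, Fen1 and Dna2). Rnaseh2a is the catalytic subunit of RNase H2, which removes RNA from DNA. It had 0.70 in VC+ from day 2 to day 7 (adjusted p = 0.0616) and -0.48 in VC- from day 0 to day 7 (adjusted p = 0.199). Over all classes 29 members were called in at least 1 comparison, and 8 tested members were called in none: Gins1, Orc2, Orc6, Pold2, Pold3, Rfc1, Rfc2 and Rnaseh2a.

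**Figure D4:**
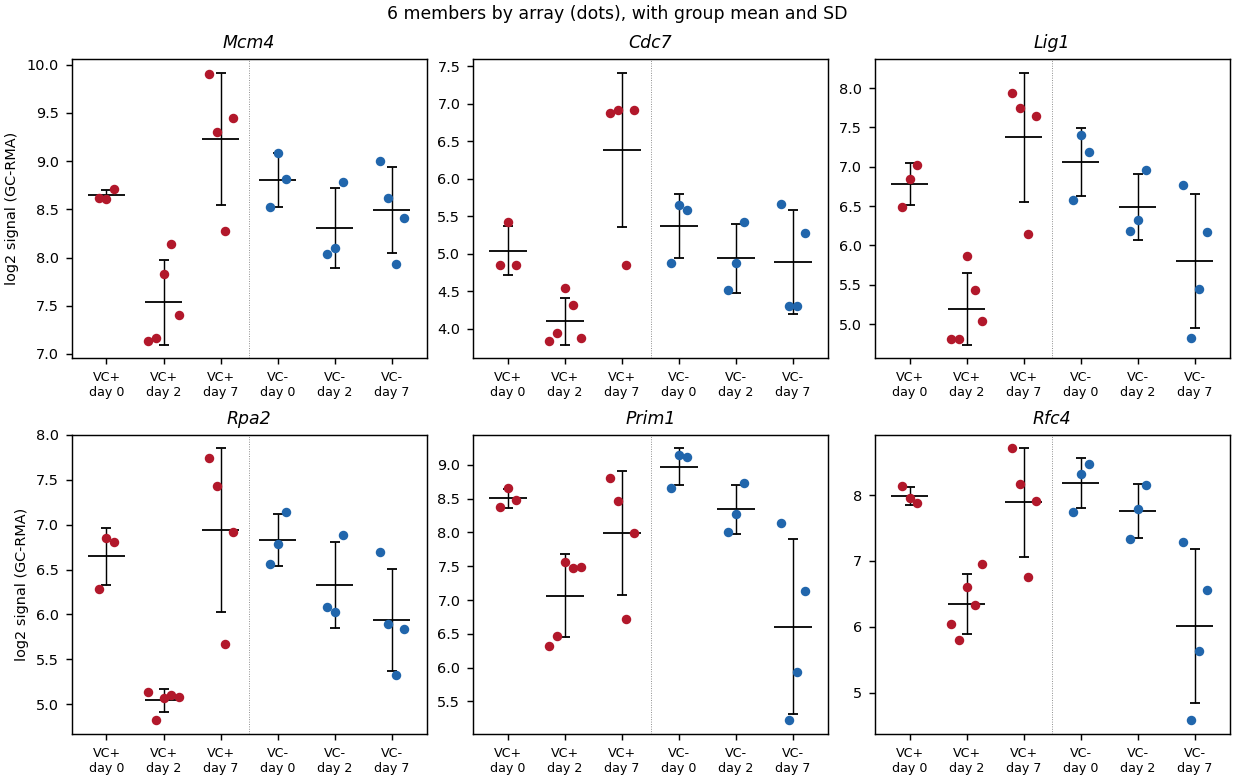
Log2 signal of Mcm4, Cdc7, Lig1, Rpa2, Prim1 and Rfc4 on each array (dots) by group, with the group mean (line) and SD (bar), VC+ in red and VC- in blue. In Mcm4, Cdc7, Lig1 and Rpa2 all 4 VC+ day 7 arrays lie above the 5 VC+ day 2 arrays, and in Prim1 and Rfc4 all 4 VC- day 7 arrays lie below the 3 VC- day 0 arrays.

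After 2 days of DSS no member was called in either genotype. In VC+ all 37 log2 fold changes between day 2 and day 0 were negative, with a median of -0.94 against -0.02 for all genes tested. All 6 smooth muscle markers had positive values in this comparison (median 0.93, 0 called), and with the muscle term the members' median was -0.56. Of the members, 25 had an unadjusted p under 0.05 (598 of 9097 genes did). All 5 VC+ day 2 arrays lay below all 3 VC+ day 0 arrays for 28 of the 37 members, which was so for 6.27% of all genes tested. The smallest adjusted p was 0.246, for Rpa2, at 5.14, 4.82, 5.07, 5.10 and 5.08 on day 2 against 6.28, 6.85 and 6.81 on day 0 (-1.61 ± 0.37), and 0.0550% of all genes tested were called in this comparison in either direction. In a fit of the VC+ day 2 and day 0 arrays alone 3 members passed (0.528% of all genes tested did), and with arrays weighted by their quality 24 did (14.1%).

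In VC- the day 2 changes had a median of -0.50, with 35 of 37 negative and 2 with an unadjusted p under 0.05, against 417 of 9097 genes (0.0110% of all genes tested were called in either direction, and no member). The muscle markers had a median of -0.83 there, and with the muscle term the members' median was -0.81. On day 7 against day 0 in VC+ mice the median was 0.34, with 33 of 37 positive, 3 with an unadjusted p under 0.05 (1250 of 9097 genes did) and 0 called, while 1.75% of all genes tested were called in either direction. The median was 0.11 when VC+ day 7 replicate 1 was dropped and -0.12 with the muscle term. When replicate 3 of that group was dropped it was 0.66, and 2 members and 2.30% of all genes tested passed.

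Between genotypes no member was called on any day. On day 7 the VC+ arrays were higher than the VC- arrays for all 37 members in the fitted means, with a median log2 fold change of 1.11 against 0.08 for all genes tested, and 29 members had an unadjusted p under 0.05 (1291 of 9097 genes did). The smallest adjusted p was 0.303, and 0% of all genes tested were called. The 2 groups overlapped in all 37 members, as they did in all but 0.901% (all VC+ higher) and 0.451% (all VC+ lower) of all genes tested. The muscle markers had a median of -0.86 in this comparison, and with the muscle term the members' median was 0.65. Without VC- day 7 replicate 1, 23 members passed, as did 13.3% of all genes tested, and without VC+ day 7 replicate 3, 11 members passed, as did 0.813% of all genes tested. On day 2 the order was the other way, with a median of -0.77, 35 of 37 negative and 20 with an unadjusted p under 0.05, against 1122 of 9097 genes (0.0440% of all genes tested were called, and no member). All VC+ day 2 arrays lay below all VC- day 2 arrays for 17 members, which was so for 4.02% of all genes tested, and without VC- day 2 replicate 1, 2 members passed, as did 2.75% of all genes tested. The 6 muscle markers all had positive values (median 1.15, 0 called), and with the muscle term the members' median was -0.34. On day 0 the median was -0.33, 32 of 37 were negative and 0 had an unadjusted p under 0.05 (0.0110% of all genes tested were called).

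The change from day 2 to day 7 was more positive in VC+ than in VC- for 36 of the 37 members. This difference of changes had a median of 1.93 on the log2 scale against 0.06 for all genes tested, and 33 members and 1555 of 9097 genes had an unadjusted p under 0.05, but none passed after adjustment (0% of all genes tested were called). The smallest adjusted p was 0.167. Pola1 had 3.24 ± 0.67, Rfc4 had 3.29 ± 0.67, Cdc6 had 3.46 ± 0.92, Lig1 had 2.87 ± 0.59 and Rfc1 was the exception at -0.09 ± 0.43. Without VC+ day 7 replicate 3, 23 members passed, as did 1.33% of all genes tested, and without VC- day 7 replicate 1, 27 members passed, as did 6.82% of all genes tested. The muscle markers had a median of -1.86 for this difference, and with the muscle term the members' median was 0.99. The difference between genotypes of the change from day 0 to day 7 had a median of 1.46, all 37 positive and 0 called (0% of all genes tested), and that of the change from day 0 to day 2 a median of -0.51, 31 of 37 negative and 0 called (0.0220% of all genes tested). These comparisons share arrays with each other.

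Counts of calls depended on single arrays, for the members and for all genes tested. Percentages in brackets are the share of all genes tested that was called in the same fit, in either direction. For VC+ day 7 against day 2 the count of 23 (7.58%) became 13 (4.80%), 14 (6.46%) and 10 (3.39%) when VC+ day 2 replicate 1, 2 or 5 was left out. It became 6 (2.48%), 8 (3.65%) and 7 (2.06%) when VC+ day 7 replicate 1, 2 or 4 was. Mcm3, Mcm4, Cdc7, Prim2, Rpa2 and Lig1 remained called whichever of the 9 arrays was left out. For VC- day 7 against day 0 the count of 13 (10.6%) became 2 (2.64%) and 0 (1.40%) on removal of VC- day 0 replicate 2 or 3. On removal of VC- day 7 replicate 1, 2, 3 or 4 it became 23 (28.6%), 4 (4.22%), 3 (4.76%) and 7 (5.45%). No member remained called throughout. For VC- day 7 against day 2 the count of 2 (5.61%) became 5 (9.55%), 0 (0.780%) and 0 (0.550%) on removal of VC- day 2 replicate 1, 2 or 3. On removal of VC- day 7 replicate 1, 2, 3 or 4 it became 12 (23.3%), 0 (1.68%), 1 (4.73%) and 0 (2.02%). When the 3 Prss2-positive arrays were dropped the counts of 23, 13 and 2 became 13 (5.99%), 0 (1.95%) and 0 (3%). On the 16 arrays without Xist signal the counts of 23 and 13 became 0 (0.187%) and 0 (0.528%). Few of all genes tested were thus called on those arrays. VC- day 7 against day 2 is left out there, as VC- day 2 kept only replicate 1. The medians over the fits without 1 array lay between 1.06 and 1.69 for the first of these comparisons and between -1.39 and -0.99 for the second.

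In VC+ mice smooth muscle markers moved in the opposite direction to the replication genes. All 6 (Acta2, Actg2, Cnn1, Des, Myh11 and Tagln) fell in VC+ between day 2 and day 7, with a median log2 fold change of -1.71. Relative to the mean over arrays their mean was -1.39, -1.22, 0.08 and -1.43 on the VC+ day 7 arrays, against 0.83, 0.24, 0.84, 1.00 and 0.97 on the VC+ day 2 arrays, so replicate 3, the day 7 array with low replication genes, was also the one with the highest muscle markers. None of the 6 stayed under a log2 signal of 4 on every array. Their summed log2 signal, in which the strongest markers weigh most, ranged from 13.64 to 15.01 on VC+ day 7 and from 15.19 to 15.96 on VC+ day 2. In VC- the mean was -0.58, -0.55, 0.34 and 0.49 on day 7, against 0.76, 0.38 and 0.27 on day 0, none of the 6 was called, and the array with the lowest muscle mean was replicate 1, the one with high replication genes. Replicate 2 had a muscle mean close to it and replication genes at -0.84.

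For VC- day 7 against day 0 the term for these 6 markers gave a median of -1.36. Over the 22 arrays the Pearson correlation of the muscle mean with the member mean was -0.59, and -0.53 after removal of group means. The part of the muscle share in the changes of replication genes was not tested beyond these values.

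**Figure D5:**
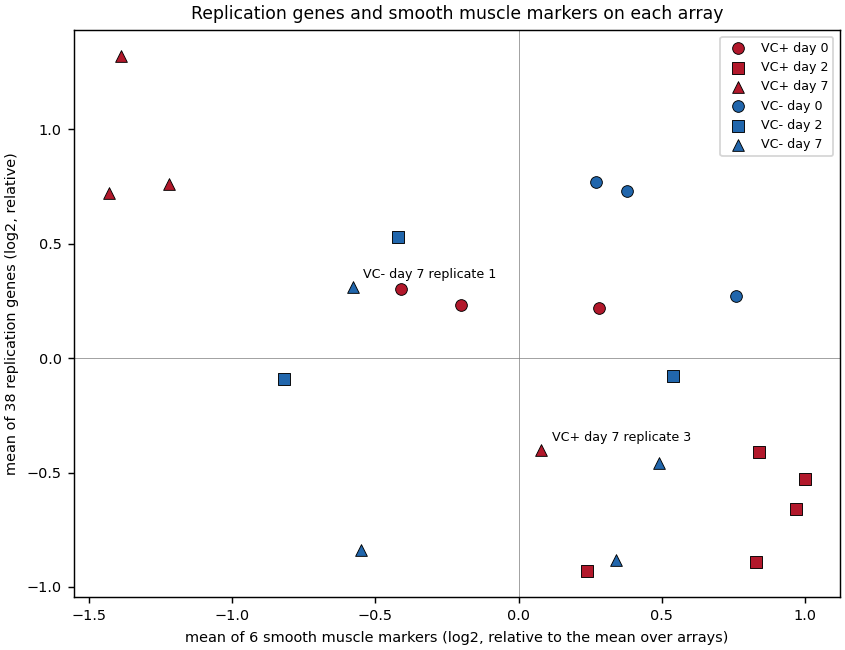
Mean of the 38 members (vertical) against the mean of 6 smooth muscle markers (horizontal) on each of the 22 arrays, both log2 and relative to the mean over arrays. VC+ day 7 replicates 1, 2 and 4 lie at the upper left, and the 5 VC+ day 2 arrays with VC+ day 7 replicate 3 lie at the lower right, while VC- arrays of day 0 are high on the vertical axis with muscle markers above 0.

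Markers of immune cells changed as well. The macrophage and monocyte list (7 of 8 genes on the array) had a summed log2 signal of 13.04 to 14.33 on VC+ day 7 and 12.17 to 12.87 on VC+ day 2, and of 12.60 to 14.71 on VC- day 7 and 11.64 to 11.83 on VC- day 0. Of 6 neutrophil genes listed, 5 were on the array and 2, S100a8 and S100a9, varied enough to be tested, and both rose in each comparison of day 7 with an earlier day of the same genotype. Mpo stayed under a log2 signal of 4 on every array. VC- day 7 replicate 1, the array with high replication genes, had the lowest macrophage mean of its group (-0.28, against 2.19, 0.84 and 1.20). Colonocyte markers were lowest on VC- day 7 replicate 2, at -2.27 relative to the mean over arrays. Over the 22 arrays the Pearson correlation with the member mean was -0.23 for the macrophage and monocyte mean and 0.2 for the colonocyte mean. After removal of group means it was -0.43 and 0.43. The part of these cell types in the result was not tested beyond these values.

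Some genes that act around replication also passed the test. Of 20 further replication genes tested (of 30 listed), 7 rose in VC+ between day 2 and day 7 and 3 fell in VC- between day 0 and day 7. For all genes tested these shares were 4.76% and 5.06%, the same background as for the lists that follow. Dnmt1, which copies DNA methylation behind the fork, rose by 1.81, Uhrf1, its partner, rose by 2.37 and had the widest spread of the list, and Dscc1, part of an alternative clamp loader, rose by 1.85 in VC+ and fell by 1.80 in VC-. In a list for the supply of deoxynucleotides, 3 of 11 rose in VC+ and 6 of 11 fell in VC-. Thymidine kinase Tk1, the most variable of them, rose by 1.93 in VC+ and fell by 2.44 in VC-, and the ribonucleotide reductase subunit Rrm2 rose by 2.94 in VC+. Ctps, which makes CTP for RNA as well as DNA, was the exception: it rose in both genotypes, by 2.00 from day 2 to day 7 in VC+ and by 2.46 from day 0 to day 7 in VC-.

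Of 16 regulators of the step from G1 to S phase tested, 2 rose in VC+ between day 2 and day 7 and 2 fell in VC- between day 0 and day 7. Cdk4 rose by 1.15 in VC+, the cyclin gene Ccne2 fell by 2.74 in VC-, and E2f8, a repressor of the E2F family and the most variable of the list, rose by 1.77 in VC+ and fell by 2.03 in VC-. Of 21 mitosis genes tested, 8 rose in VC+ and 3 fell in VC-, with medians of 1.84 and -1.87. Plk1, a mitotic kinase, rose by 2.14 in VC+, Nusap1 fell by 2.57 in VC-, and Ttk, the most variable, passed in neither (adjusted p = 0.0663 in VC+ and 0.0541 in VC-). Of 11 crypt base and Wnt target genes tested, 0 rose and 1, the receptor gene Tnfrsf19, fell in VC+ between day 2 and day 7. Of all 9097 genes tested 257 fell there. Between day 0 and day 7, 5 of the 11 fell in VC- and 4 fell in VC+ (460 and 39 of all genes tested). In VC+ 3 of them fell between day 0 and day 2, as did 4 of all genes tested.

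The correlation of each member with the mean of the others over the 22 arrays ran between 0.25 (Rfc1) and 0.96 (Mcm2, Pcna and Lig1), and it was under 0.60 only for Rfc1, Orc2, Rfc2 and Orc1. After group means were removed it ran between 0.14 (Orc2) and 0.95 (Pola1), with 0.93 for Mcm2. Arrays of one group thus also differed in many members together, while Orc2, Rfc1 (0.21), Rfc2 (0.27) and Pold3 (0.35) followed the others least. The 10 genes outside all lists with the profile most like the member mean, of 8953 compared, were Hells, Nasp, Atad5, Ncapd2, Rad51ap1, Incenp, Spdl1, Mad2l1, Cdca5 and Trip13, with correlations between 0.946 and 0.971. These points share arrays, normalization and tissue make-up.

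Of the 38 members 28 had further probe sets, 43 in all, that had not been chosen for their spread. Between day 7 and day 2 in VC+ 42 of the 43 had the sign of the chosen probe set, and so did all 25 of those with a mean log2 signal of at least 5, with a median of 1.00. For VC- day 7 against day 0, 40 of 43 and 22 of 25 had the same sign, with a median of -0.64.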

How the data were processed

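Total RNA of mouse colon was hybridised to 22 Affymetrix whole-genome mouse arrays. The authors deposited log2 values normalised by GC-RMA (affy and limma in R 2.10.1, per the labels and methods), 45101 probe sets per array. GC-RMA compresses dim probe sets towards a floor, and 41.7% of the values lay under a log2 value of 3. Array medians lay between 3.41 and 3.55, and the number of arrays limits the precision.

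Probe sets with 1 gene symbol (34958) were kept, the one with the largest interquartile range per gene was used, and the upper 50% of genes by interquartile range (above 0.246) were tested, 9097 of 18194. All 22 arrays entered 1 linear model of the 6 group means (limma 3.58.1, R 4.3.3, with lmFit, contrasts.fit and eBayes). Tests were two-sided, and p-values were adjusted by Benjamini-Hochberg over all genes tested in a comparison, with a threshold of 0.05. The script was tested on simulated data with changes set in the VC- day 7 group. There 34% of genes changed by 1 on the log2 scale were called against day 0, and 73% of those changed by 2. A change near 1 was thus often missed in the simulation. Tables and figures were made with Python 3.11.15, pandas 2.3.3, numpy 2.4.6 and matplotlib 3.10.9.

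Members and gene lists were chosen with earlier results of these data known. At most 4 members of each class were described in full, those with the smallest adjusted p over the comparisons. Of other lists, at most 4 called genes and the gene with the widest interquartile range were named. Alternatives were the variance filter, the probe set rule, centring, array weights, the samples in the fit, a replicate block, terms for Hoxb13 (a marker of distal colon) and muscle, and each array left out.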

Additional observations from a re-analysis of the deposited data

Results flagged for a closer look

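Of 114 groups of 4 or 5 arrays looked at over the 38 members, 8 held a lone array far from the rest of its group. The rule's threshold passes about 1 in 20 groups by chance, and the members are correlated over arrays, so the groups are not independent. Cdc7 and Lig1 were lowest on VC+ day 7 replicate 3, at log2 signals of 4.85 and 6.15, and Rfc5 and Rpa2 were lowest on VC+ day 2 replicate 2, at 5.03 and 4.82. Orc1 stood at 4.29 on VC- day 7 replicate 1. Orc2 and Prim2 stood at 6.99 and 6.23 on VC- day 7 replicate 2, the array with high Prss2 and the lowest colonocyte markers, and Cdc45 stood at 3.45 on VC+ day 2 replicate 4.

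For 8 members every VC+ day 7 array lay above the VC+ day 2 mean and every VC- day 7 array below the VC- day 2 mean. Only the members were looked at in this way, so the count has no share of all genes to be read against. The difference between genotypes of the change from day 2 to day 7, VC+ minus VC-, was 3.29 for Rfc4, 3.24 for Pola1, 2.61 for Cdt1, 2.13 for Mcm7, 2.1 for Pole2, 1.94 for Rfc2, 1.55 for Rfc3 and 1.42 for Pold1 on the log2 scale. In the limma fit none of these differences passed the threshold after adjustment, and the smallest adjusted p of any member was 0.167.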

How the results depend on the processing

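No result changed its direction while called. Of the values for counts and medians of the members, 397 stayed close to those reported and 63 moved, and the cause was not tested. Most comparisons had a count of 0, and a count that stayed at 0 was taken as close. A median was taken as close when it shifted by less than 0.442, the pooled within-group SD of the member mean. Of the refits of single member calls, 355 stayed under the threshold, while 337 kept their sign but did not. In this section a percentage beside a count is the share of all genes tested that was called in the same fit, in either direction. With array quality weights the counts for VC+ against day 0 were 24 (14.1%) on day 2 and 6 (16.6%) on day 7. For VC- day 7 against day 0 the count was 27 (24.4%). Day 7 against day 2 gave 35 (29.1%) in VC+ and 5 (9.22%) in VC-. VC+ against VC- gave 1 (7.54%) on day 0 and 30 (17.5%) on day 7. The genotype difference of the day 2 response gave 1 (3.74%). That of the day 7 response gave 32 (8.71%), and that of the change from day 2 to day 7 gave 34 (16.2%). Without the variance filter, which adds genes to the adjustment, 11 members rose in VC+ between day 2 and day 7 and 6 fell in VC- between day 0 and day 7. No share of all genes is given for that fit, so these counts cannot be set against a background. Other fits held no arrays but those of the groups set against each other. The counts were then 3 (0.528%) for VC+ day 2 against day 0, 0 (0.0330%) for VC- day 7 against day 0 and 0 (0%) for VC- day 7 against day 2.

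Counts follow for VC+ day 7 against day 2, VC- day 7 against day 0 and VC- day 7 against day 2, in turn. They were 13 (5.99%), 0 (1.95%) and 0 (3%) without the 3 arrays with Prss2 signal. With a term for Hoxb13 they were 10 (2.81%), 4 (5.77%) and 1 (3.08%). With the muscle term they were 0 (0%), 21 (10.9%) and 0 (4.66%). On the 16 arrays without Xist signal the first and second were 0 (0.187%) and 0 (0.528%). The third is not given there, because VC- day 2 kept only replicate 1. VC- day 7 against day 2 gave 0 (5.32%) with array medians centred and 1 (share of all genes not given) with the probe set of the highest mean. With the muscle term, added after seeing the data, medians were 0.42 for VC+ day 7 against day 2, -0.12 for VC+ day 7 against day 0, 0.65 for VC+ against VC- on day 7, and 0.21 and 0.99 for the genotype differences of the day 2 response and of the change from day 2 to day 7.

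Leaving out 1 array at a time gave counts from 6 to 29 for VC+ day 7 against day 2, 0 to 23 for VC- day 7 against day 0, 0 to 12 for VC- day 7 against day 2, 0 to 2 for VC+ day 7 against day 0, 0 to 2 and 0 to 23 for VC+ against VC- on days 2 and 7, and 0 to 27 for the genotype difference of the change from day 2 to day 7. In the same order the shares of all genes tested that were called ran from 2.06% to 11.0%, 1.40% to 28.6% and 0.550% to 23.3%. For the rest they ran from 0.583% to 2.30%, 0.0110% to 2.75%, 0% to 13.3% and 0% to 6.82%. The median of the genotype difference of the day 7 response lay between 1.18 and 1.95.

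Nothing in the labels says that a replicate number marks shared animals or days. Deviations from the group means correlated above 0.1 in 18 of 48 same-numbered pairs (mean r 0.084) and in 36 of 152 other pairs (mean r -0.027), so not every pair passed and the numbers were not used to pair arrays. A replicate block gave 11 member calls (3.66%) for VC+ day 7 against day 2. It gave 3 (4.07%) for VC- day 7 against day 0 and 0 (1.15%) for VC- day 7 against day 2.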
